A study of Homo sapiens with 6 samples.

Results

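Mel 290 is an established human cell line labelled as choroidal uveal melanoma, a tumour of the pigment cells at the back of the eye. Its response to activated T cells was read from the 2 arrays of this line among 6 arrays of 3 lines, 1 grown alone and 1 grown with T cells. The members were chosen by the cell line on the labels and not by any measured value. The other lines, 92.1 and Mel 270, also had 1 array alone and 1 in co-culture, and their changes serve here as background.

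In every well 100000 cells of Mel 290 or Mel 270, or 80000 cells of 92.1, had been plated. Mel 290 had reached confluence when the medium was replaced by X-VIVO 15 without serum, while the other lines were still subconfluent. Line and density at that point therefore cannot be told apart. All arrays were made after 64 h in this medium. In co-culture a membrane insert with pores of 0.4 µm held 1500000 T cells per well in 3 ml of medium above the melanoma cells. The T cells came from blood of healthy volunteers and had been activated with beads against CD3 and CD28. The control wells of all lines had no T cells, and the labels name no well with resting T cells or with beads alone. The labels do not say whether the co-cultures shared 1 donor.

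Activated T cells secrete interferon-gamma, tumour necrosis factor and other cytokines that can cross such a membrane. Interferon-gamma acts through the receptor-bound kinases JAK1 and JAK2 and so-called GAS sites in DNA, and induces the transcription factor IRF1, antigen presentation genes and the chemokines that attract activated T cells. Tumour necrosis factor and interleukin-1 act through NF-kappaB, which binds kappaB sites and drives CXCL8, IL6 and its own inhibitors. Type I interferons act through a STAT and IRF9 complex on interferon-stimulated elements.

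A change is here the log2 value in co-culture minus the log2 value alone, so that 1 is a 2-fold and 2 a 4-fold difference. A low reading cannot be told from background on this array, and a floor was set at 5.80, the 25th percentile of the probe-set means. A gene was counted if its mean over both Mel 290 arrays reached the floor, which 13668 of 18417 genes did. Where a value lay below the floor, the change with that value raised to the floor is given too, as the raised change. With 1 array a side there is no replicate check in Mel 290, and no p-value is given for its changes. Values of different genes were not set against each other as levels.

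The line was first set against its label. Of 11 melanocytic markers, 5 lay below the floor in Mel 290 alone, and 0 did so in 92.1 or Mel 270 alone. TYR, the tyrosinase that starts melanin synthesis, read 4.79 alone and 4.64 in co-culture in Mel 290, against 10.96 and 9.39 in 92.1 and 11.72 and 9.63 in Mel 270. MLANA, a melanosome antigen, read 4.92 and 5.05 in Mel 290, and TYRP1, a melanosomal enzyme, 5.19 and 5.02. Melanocytic RNA was still present at some other genes. MITF, the master regulator of the lineage, read 8.96 and 8.16 in Mel 290, and GPR143, a melanosome receptor, 9.76 and 8.96. SOX10, a neural crest factor, read 6.84 and 7.25. TYR, TYRP1, MLANA, SLC24A5 and PAX3 were thus below the floor on both Mel 290 arrays, and the other 6 markers were above it alone. Of these, PMEL and OCA2 read 6.10 and 5.97 in Mel 290 alone, close to the floor. They read 13.08 and 10.24 in 92.1 alone.

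Markers of other cells were checked beside these. Of 9 fibroblast or mesenchymal markers, 2 lay below the floor on each Mel 290 array. PDGFRB, a growth factor receptor of mesenchymal cells, read 9.66 alone and 8.57 in co-culture in Mel 290, and between 5.58 and 5.99 on the 4 other arrays. COL3A1, a fibrillar collagen, read 6.38 and 6.48 in Mel 290, where the other arrays read 6.17 to 6.33. Of 8 T cell markers, 5 lay below the floor on each of the 6 arrays. CD3E, a chain of the T cell receptor complex, read 4.46 alone and 4.84 in co-culture. Over a longer list 11 of 26 T cell genes were counted, with changes from -0.09 to 0.41 and 0 at least 2-fold apart. In bulk RNA fewer cells of a type and less RNA per cell cannot be told apart.

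**Figure D1:**
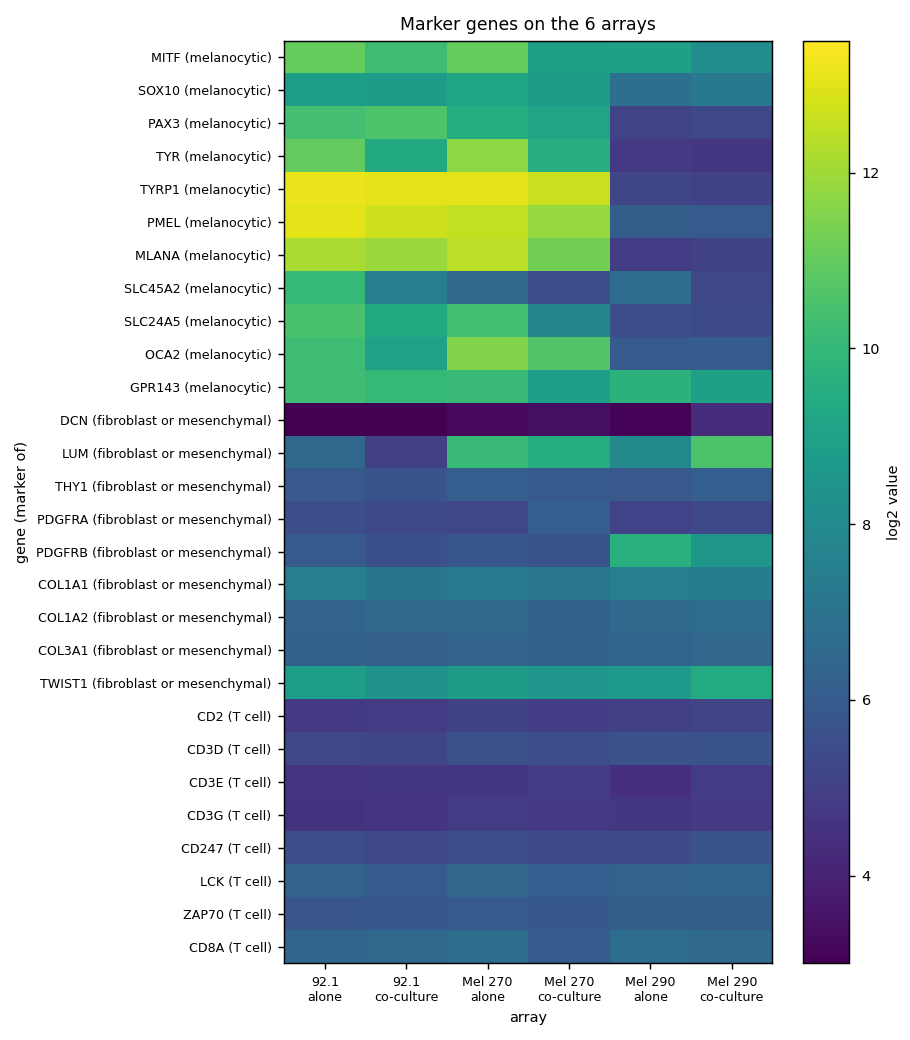
Log2 values of 28 marker genes (rows) on the 6 arrays (columns), with colour from dark (low) to light (high). TYR, TYRP1, PMEL, MLANA, SLC24A5 and PAX3 are light or green in 92.1 and Mel 270 and dark in both Mel 290 columns, PDGFRB is higher in both Mel 290 columns than in the others, and the T cell rows are dark on every array.

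The regulatory letters ahead of the genes that stand out in Mel 290 are shown first. The sequences are the 250 bases before the RefSeq start of each gene on the GRCh38.p14 assembly, written 5′ to 3′ on the strand of the gene. Capitals mark matches, on either strand, to the GAS letters TTCNNNGAA, to the core of the interferon-stimulated element GAAANNGAA or to the kappaB core GGNNNTTCC. Matches of different motifs can overlap, since the letters TTC and GAA recur in them. CXCL10, CXCL8 and IRF1 stand for genes that were far higher in co-culture in all 3 lines. IL1B, CCL7 and TFPI2 stand for genes that were far higher in Mel 290 and under 2-fold apart in 92.1 and Mel 270. All 6 were picked for display because they hold a match, which not every such gene did.
CXCL10, chr4:76023498-76023747, minus strand: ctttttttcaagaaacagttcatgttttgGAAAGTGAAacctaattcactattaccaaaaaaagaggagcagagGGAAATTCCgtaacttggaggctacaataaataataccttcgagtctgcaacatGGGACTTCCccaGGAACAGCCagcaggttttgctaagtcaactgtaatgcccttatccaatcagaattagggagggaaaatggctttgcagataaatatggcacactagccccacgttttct
CXCL8, chr4:73740319-73740568, plus strand: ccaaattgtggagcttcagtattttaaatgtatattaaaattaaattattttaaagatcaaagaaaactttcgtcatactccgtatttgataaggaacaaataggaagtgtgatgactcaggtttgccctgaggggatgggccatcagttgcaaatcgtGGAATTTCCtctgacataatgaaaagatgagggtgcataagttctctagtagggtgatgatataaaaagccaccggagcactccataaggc
IRF1, chr5:132490774-132491023, minus strand: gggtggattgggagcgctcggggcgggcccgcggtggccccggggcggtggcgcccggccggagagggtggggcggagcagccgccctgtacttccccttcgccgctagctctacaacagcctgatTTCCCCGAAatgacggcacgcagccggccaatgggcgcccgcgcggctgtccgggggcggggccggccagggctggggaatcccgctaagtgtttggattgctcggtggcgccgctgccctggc
IL1B, chr2:112836780-112837029, minus strand: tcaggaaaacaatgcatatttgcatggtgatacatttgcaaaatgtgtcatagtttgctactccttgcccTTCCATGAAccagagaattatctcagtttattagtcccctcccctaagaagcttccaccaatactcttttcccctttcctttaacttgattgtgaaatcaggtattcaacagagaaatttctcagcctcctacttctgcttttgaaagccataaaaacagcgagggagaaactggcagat
CCL7, chr17:34269971-34270220, plus strand: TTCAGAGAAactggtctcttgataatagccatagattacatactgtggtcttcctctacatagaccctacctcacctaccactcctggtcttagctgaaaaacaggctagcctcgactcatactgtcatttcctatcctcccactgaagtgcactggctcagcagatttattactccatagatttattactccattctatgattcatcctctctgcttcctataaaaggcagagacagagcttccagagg
TFPI2, chr7:93890754-93891003, minus strand: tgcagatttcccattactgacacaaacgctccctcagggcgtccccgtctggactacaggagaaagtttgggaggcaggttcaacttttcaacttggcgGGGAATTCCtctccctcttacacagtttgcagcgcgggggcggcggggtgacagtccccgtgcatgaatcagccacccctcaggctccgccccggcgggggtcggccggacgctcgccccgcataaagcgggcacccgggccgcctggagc

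The CXCL10 window held 1 match to the interferon-stimulated core and 3 to the kappaB core, and the CXCL8 and TFPI2 windows 1 kappaB match each. The IRF1, IL1B and CCL7 windows held 1 GAS match each. The windows of IL1A, FST, TNFAIP6 and RGS4, genes with changes as large, held 0 matches to any of the 3 motifs. Among the genes at least 2-fold higher in Mel 290 co-culture, 235 had such a window. GAS letters stood in 13.6% of these windows, the interferon-stimulated core in 21.7% and the kappaB core in 31.1%. Over the windows of all counted genes the shares were 5.39%, 4.97% and 19.6%, and over all 27305 promoters 6.78%, 7.06% and 17.1%. For the 285 windows of genes at least 2-fold lower they were 5.26%, 4.91% and 20.4%, close to those of all counted genes. A match is a run of letters and not a shown binding site. CCL2, CCL5, GBP5 and MMP1 were not matched to a window.

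In Mel 290, 304 genes were at least 2-fold higher in co-culture, 2.22% of the counted genes, and 342 were at least 2-fold lower, 2.5%. The higher side reached much further. At 4-fold there were 105 higher genes (0.768%) and 23 lower ones (0.168%). The median change over counted genes was 0.01. Among 4428 genes below the floor on both arrays of the line, 22 (0.497%) lay 2-fold apart, with an SD of the changes of 0.24. Of the 304 higher genes 57 were below the floor alone, and of the 342 lower genes 47 were below it in co-culture. The 2 arrays of the line correlated at r = 0.980 over all probe sets.

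**Figure D2:**
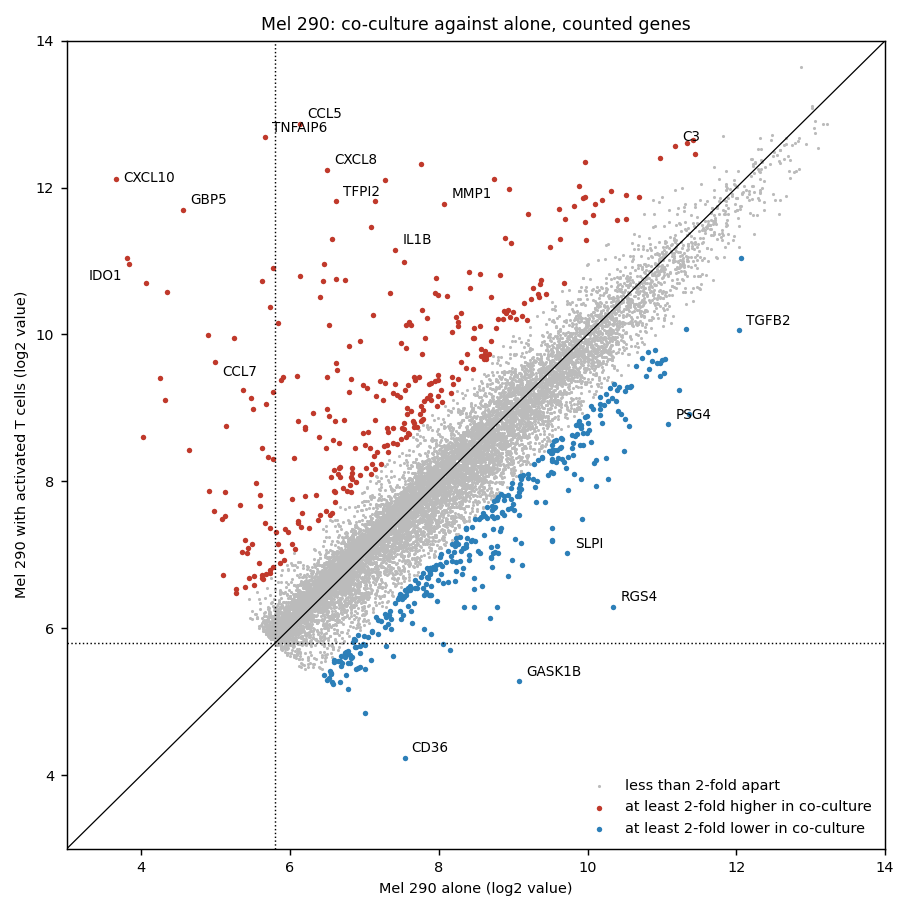
Log2 value of each counted gene in Mel 290 alone (x axis) against Mel 290 with activated T cells (y axis). The line marks equal values and the dotted lines the floor of 5.80. The 304 genes at least 2-fold higher (red) spread up to a change of 8.46 for CXCL10, and the 342 at least 2-fold lower (blue) mostly lie close under the 2-fold limit, with RGS4 at -4.05.

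In 92.1 the same rule counted 458 higher genes (3.35%) and 326 lower ones (2.39%), and in Mel 270 693 (5.07%) and 565 (4.13%). Of the 304 higher genes of Mel 290, 151 were also 2-fold higher in 92.1, which is 49.7% of the Mel 290 genes and 33% of those of 92.1. With Mel 270 it shared 178, 58.6% of its own and 25.7% of those of Mel 270. In all 3 lines 121 genes were 2-fold higher, and 96 of the 304 passed in neither other line. The lower genes were shared less. With 92.1 there were 51 in common (14.9% and 15.6%) and with Mel 270 74 (21.6% and 13.1%). All 3 lines shared 31 lower genes, while 248 of the 342 passed in neither other line. Changes of Mel 290 correlated across genes at r = 0.51 with those of 92.1 and at 0.51 with those of Mel 270, beside 0.64 between these lines. Genes are not independent replicates, so these coefficients are descriptions.

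Of the 20 genes with the largest raised changes 5 were chemokines: CCL5, CXCL10, CXCL8, CXCL11 and CXCL9. CXCL10, which attracts activated T cells through CXCR3, read 3.66 alone and 12.12 in co-culture, a change of 8.46 and a raised change of 6.32. The other CXCR3 ligands CXCL11 and CXCL9 had changes of 7.23 and 6.64 and raised changes of 5.25 and 4.91. CXCL8, a neutrophil attractant, went from 6.50 to 12.25, which is 53.7-fold. Its change of 5.75 stood beside 5.19 in 92.1 and 5.53 in Mel 270, so the lines were close here. CXCL3, another neutrophil attractant, had a change of 1.11 and a raised one of 0.93, which is under 2-fold, and CXCL1 had a change of 0.31. Of 9 counted CXC chemokines 5, CXCL3 among them, were at least 2-fold higher and 0 lower. Their median change was 1.11, or 0.93 with low values raised. The medians of 92.1 and Mel 270 were 1.81 and 1.02.

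Of 10 counted CC and CX3C chemokines, which draw monocytes and T cells, 6 were at least 2-fold higher in Mel 290, against 2 in 92.1 and 4 in Mel 270. Mel 290 had the largest of the 3 changes at 8, where it did so at 42.8% of all counted genes, and some of the 8 were small, as for CCL24 (0.31). CCL5, a T cell and monocyte attractant, read 6.13 alone and 12.87 in co-culture. Its change of 6.74 was close to the 6.39 of Mel 270 and above the 2.91 of 92.1. CCL2, the main monocyte attractant, went from 6.61 to 10.76, a change of 4.14, where 92.1 had 4.45 and Mel 270 5.43.

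CCL7 and CCL8, monocyte attractants of the same chromosome 17 cluster as CCL2, differed between the lines. CCL7 read 4.99 alone and 9.62 in co-culture in Mel 290, 4.73 and 4.80 in 92.1, and 4.80 and 4.74 in Mel 270. It was above the floor on a single array, Mel 290 in co-culture. CCL8 read 4.02 and 8.60 in Mel 290, 3.97 and 3.64 in 92.1, and 4.05 and 7.47 in Mel 270. CCL3, a macrophage inflammatory protein, went from 6.54 to 8.05 in Mel 290, a change of 1.51, and CX3CL1, the membrane-bound ligand of CX3CR1, from 6.94 to 8.09, a change of 1.15. CX3CL1 had changes of 0.02 and 0.33 in 92.1 and Mel 270.

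Receptor and signalling genes of the interferon-gamma axis were mostly within 2-fold. JAK2 read 7.03 alone and 9.27 in co-culture, a change of 2.24, and JAK1 10.53 and 10.37. IRF1 went from 6.45 to 10.96, and its change of 4.50 matched the 4.50 of Mel 270 and stood below the 5.23 of 92.1. SOCS1, which blocks JAK kinases, had a change of 0.91 and SOCS3 one of 0.77. Of 19 counted receptors, JAKs, STATs, IRFs and SOCS genes 4 were at least 2-fold higher in Mel 290, 7 in 92.1 and 12 in Mel 270. Over all counted genes the shares were 2.22%, 3.35% and 5.07%.

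Of 16 counted effector genes of interferon-gamma 13 were at least 2-fold higher and 0 lower. IDO1, which breaks down tryptophan, read 3.84 and 10.96, a change of 7.12 and a raised one of 5.16. The guanylate-binding proteins GBP5, GBP2 and GBP4, which act against intracellular pathogens, had changes of 7.14, 5.10 and 6.25 and raised changes of 5.90, 4.93 and 4.79. GCH1, the first enzyme of biopterin synthesis, went from 6.52 to 10.13, a change of 3.61 that was close to the 3.69 of Mel 270 and above the 1.04 of 92.1. APOL6, an apolipoprotein L, had a change of 2.39, against 5.66 and 5.40. The median change was 2.63 in Mel 290, 3.93 in 92.1 and 3.91 in Mel 270, and Mel 290 had the smallest change of the lines at 9 of the 16 genes, as it did at 29.8% of all counted genes. GBP and APOL genes are families whose members can share probes, so single members are uncertain.

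Of 36 counted type I interferon and antiviral genes 31 were at least 2-fold higher in Mel 290 and 0 lower, with a median change of 2.37. In 92.1 and in Mel 270 29 of them were higher. IFITM1, which blocks virus entry, read 7.28 and 12.10, a change of 4.83, and IFI44L 6.57 and 11.30, a change of 4.73. XAF1, an apoptosis regulator, read 5.77 and 8.31 in Mel 290. Its change of 2.54 (raised 2.51) was well below the 5.42 of 92.1 and the 5.14 of Mel 270. Some antiviral genes went the other way between the lines. HERC6, a ubiquitin ligase, had a change of 1.36, against 0.09 and 0.08. MX2, a dynamin-like antiviral protein, read 4.97 and 7.60, a change of 2.63 and a raised one of 1.80, with changes of 1.05 and 0.21 in the other lines. Mel 290 had the smallest change at 21 of the 36 genes and the largest at 7. Over all counted genes the shares were 29.8% and 42.8%.

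Antigen presentation split by class. Of 14 counted genes of the MHC class I pathway 11 were at least 2-fold higher. TAP1, a subunit of the peptide transporter, read 9.97 alone and 12.35 in co-culture in Mel 290, 7.77 and 12.82 in 92.1, and 8.28 and 12.28 in Mel 270. Mel 290 therefore began highest and ended within the range of the others. B2M, the light chain, went from 11.82 to 12.71, a change of 0.89, and PSMB9, an immunoproteasome subunit, from 7.99 to 10.53, a change of 2.54. The list's median change was 1.25, against 2.33 and 1.87.

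The class II side was the reverse, with a median change of 2.42 in Mel 290, 1.65 in 92.1 and 0.68 in Mel 270. Of 9 counted genes 7 were at least 2-fold higher. HLA-DPA1 read 7.14 and 11.82 in Mel 290, a change of 4.67, with 3.96 in 92.1 and 2.37 in Mel 270. HLA-DPB1, its partner chain, read 6.44 and 10.73 in Mel 290, 7.83 and 9.49 in 92.1, and 6.08 and 6.18 in Mel 270. HLA-DQA1 read 5.50 and 8.98, a change of 3.49 and a raised one of 3.19, where the others had changes of 0.98 and 1.03. HLA-DMB, which helps to load peptides, went from 6.80 to 9.22, a change of 2.42, with 1.35 and -0.58 in the others. CIITA, the activator of class II genes, had a change of 0.62, and CTSS, the protease that trims the invariant chain, one of 4.64 (raised 4.57). HLA genes resemble each other and differ between people, so their probe sets can misread.

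Of the checkpoint genes, CD274, the PD-1 ligand PD-L1, read 7.09 and 11.46, a change of 4.37, and PDCD1LG2, the other PD-1 ligand, 7.77 and 10.33. Changes in 92.1 and Mel 270 were 5.01 and 5.55 for CD274 and 2.44 and 2.62 for PDCD1LG2. These 2 were the only ones of 11 counted genes past 2-fold. ICAM1, which binds leukocyte integrins, went from 5.91 to 9.43, a change of 3.52 close to the 3.54 of 92.1, while 0 of the other 11 counted adhesion genes were 2-fold apart. VCAM1 read 4.58 and 5.86, a raised change of 0.06, with a change of 4.91 in 92.1.

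Interleukin-1 genes were among those at which Mel 290 stood furthest from the other lines. IL1A, an alarm cytokine, read 5.84 alone and 10.16 in co-culture in Mel 290, 4.05 and 4.42 in 92.1, and 4.36 and 4.54 in Mel 270. IL1B, the secreted form, read 7.42 and 11.15 in Mel 290, 4.42 and 4.01 in 92.1, and 4.34 and 4.55 in Mel 270. Both were above the floor in Mel 290 and below it on the 4 other arrays, and their changes in Mel 290 were 4.32 and 3.74. IL6, a cytokine that induces acute-phase proteins, read 5.77 and 10.91, a change of 5.14 (raised 5.11), with 0.39 in 92.1 and 3.48 in Mel 270. TNFSF10, the death ligand TRAIL, read 4.25 and 9.41, a change of 5.16 and a raised one of 3.61, with changes of 2.99 and 0.40.

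Of 21 counted cytokines and decoys 11 were at least 2-fold higher and 2 lower. Mel 290 had the largest change of the lines at 12, where it did so at 42.8% of all counted genes. LIF, an IL6 family cytokine, went from 7.78 to 8.84, a change of 1.06. The lower ones were TGFB2 and IL18. TGFB2, a growth-restraining and matrix-inducing factor, read 12.03 alone and 10.06 in co-culture in Mel 290, 5.88 and 5.92 in 92.1, and 5.41 and 5.02 in Mel 270. IL18, which drives interferon-gamma production, read 7.29 and 5.76 in Mel 290, a change of -1.53, with 0.17 and 0.18 in the others. Its co-culture value lay just below the floor.

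NF-kappaB pathway and feedback genes were higher in part. Of 19 counted genes 10 were at least 2-fold higher, with a median change of 1.06, against 1.31 in 92.1 and 1.64 in Mel 270. Mel 290 had the smallest change at 11 of the 19, where it did so at 29.8% of all counted genes. TNFAIP3, the feedback inhibitor A20, went from 6.49 to 9.42, a change of 2.93, with 4.58 and 4.77 in the others. NFKBIA, the inhibitor that holds NF-kappaB in the cytoplasm, went from 8.97 to 11.25, a change of 2.28, with 3.09 and 4.75. NFKBIZ, a nuclear co-activator of IL6, was an exception with 2.89, against 2.56 and 2.00. SOD2, the mitochondrial superoxide dismutase and a classic NF-kappaB target, read 10.97 and 12.41 in Mel 290, 8.01 and 12.04 in 92.1, and 7.87 and 12.68 in Mel 270.

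Acute-phase and complement genes showed both patterns. TNFAIP6, a hyaluronan-binding protein induced by tumour necrosis factor and interleukin-1, had the largest raised change in Mel 290. It read 5.66 alone and 12.69 in co-culture, a change of 7.03 and a raised one of 6.89, while 92.1 read 4.63 and 8.01 and Mel 270 9.38 and 13.05. SERPING1, the C1 inhibitor, read 6.14 and 10.79, a change of 4.65, with 2.24 and 2.62 in the others. CFB, factor B of the alternative pathway, read 7.76 and 12.32, a change of 4.56, with 0.97 in 92.1 and 4.18 in Mel 270.

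The complement proteases and C3 were the opposite case. C1S read 9.88 alone and 12.02 in co-culture in Mel 290, 5.66 and 12.19 in 92.1, and 5.21 and 11.96 in Mel 270. C1R read 9.97 and 11.87 in Mel 290, 6.95 and 11.29 in 92.1, and 6.20 and 12.07 in Mel 270. C3, the central component, read 11.18 and 12.56 in Mel 290, 5.45 and 9.02 in 92.1, and 5.46 and 13.07 in Mel 270. At all 3 genes Mel 290 was far above both other lines when grown alone, and in co-culture the values of C1S and C1R lay within 1 log2 unit over the lines. Of 16 counted genes 10 were at least 2-fold higher, with a median of 1.67, against 0.98 and 3.92.

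**Figure D3:**
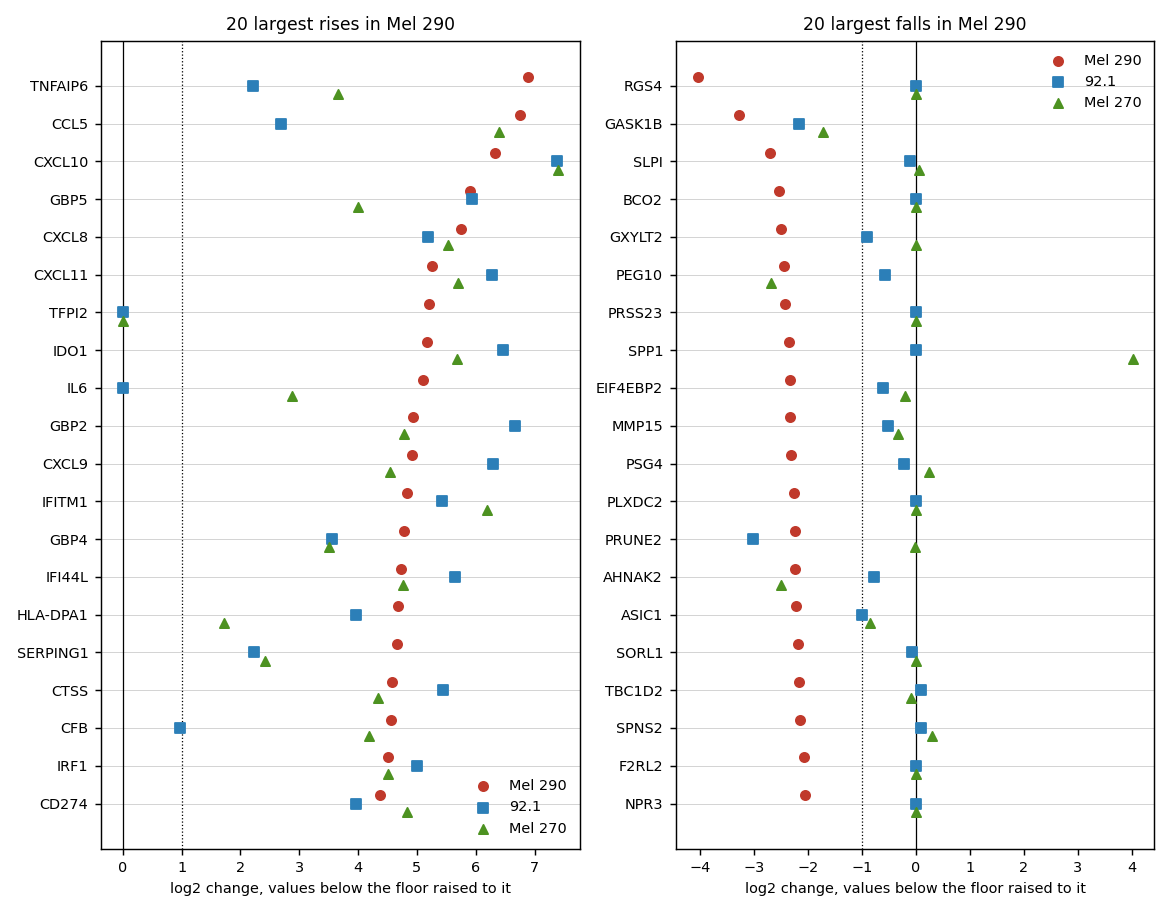
Raised log2 changes of the 20 genes with the largest rises (left) and the 20 with the largest falls (right) in Mel 290, with 1 point per line. The rises of CXCL10, CXCL8, IDO1 and IRF1 have points of all 3 lines past 4, TFPI2 has the other lines at 0, and most falls have the points of 92.1 and Mel 270 near 0.

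TFPI2, MMP1 and SERPINB7 were also far higher in Mel 290 and under 2-fold apart in the other lines. TFPI2, an inhibitor of serine proteases in the matrix, read 6.62 alone and 11.82 in co-culture in Mel 290, which is 36.8-fold. It read 4.33 and 4.26 in 92.1 and 4.34 and 4.19 in Mel 270, below the floor throughout. MMP1, the interstitial collagenase, read 8.07 and 11.78 in Mel 290, a change of 3.71, where 92.1 read 4.37 and 4.54 and Mel 270 4.56 and 4.78. SERPINB7, a serpin, read 6.62 and 9.61, a change of 2.99, with 0.05 and 0.96 in the others.

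Of 21 counted matrix proteases and inhibitors 5 were at least 2-fold higher and 1 lower in Mel 290, as many as in Mel 270 with 5 and 1, against 0 and 1 in 92.1. The higher ones of Mel 290 were MMP1, ADAMTS9 (1.46), ADAMTS12 (1.34), MMP3 (1.34) and MMP9 (1.02). None of these was past 2-fold in 92.1 or Mel 270, where their changes ran from -0.37 to 0.37. MMP16, a membrane-bound metalloprotease, read 7.09 and 5.57, a change of -1.52 and a raised one of -1.29. MMP15, another one, was among the 20 largest falls, from 9.53 to 7.20.

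Among other genes named for a change above both other lines were FST, LUM, NRP2 and DNER. FST, follistatin, which binds activins, read 6.74 and 10.74 in Mel 290, 8.15 and 8.75 in 92.1, and 6.51 and 6.08 in Mel 270. LUM, a collagen-binding proteoglycan, read 7.94 and 10.57 in Mel 290, 6.50 and 5.00 in 92.1, and 10.12 and 9.48 in Mel 270. NRP2, a semaphorin and VEGF co-receptor, read 7.34 and 10.57 in Mel 290, a change of 3.22, with 0.09 and 0.28. DNER, a Notch-related membrane protein, read 7.60 and 10.18, a change of 2.57, with -0.05 and -0.27. VEGFC, a lymphatic growth factor, went from 7.77 to 9.73, a change of 1.96, with -0.62 in 92.1 and 1.17 in Mel 270. PTGES, which makes prostaglandin E from its precursor, went from 7.28 to 9.34, a change of 2.06, with 0.00 and 0.34.

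HBEGF, a ligand of the EGF receptor, pointed in opposite directions. It read 8.03 and 9.25 in Mel 290, 7.70 and 6.57 in 92.1, and 7.97 and 6.62 in Mel 270. CRYAB, a small heat shock protein, was the reverse, with 10.93 and 9.61 in Mel 290, 4.99 and 6.32 in 92.1, and 10.02 and 11.04 in Mel 270. No other counted gene was 2-fold apart in Mel 290 and 2-fold the other way in both other lines.

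By size, 64 genes (0.468%) were at least 2-fold higher in Mel 290 and at least 2-fold above the changes of both other lines. Of these 22 were below the floor on all 4 arrays of 92.1 and Mel 270, as TFPI2, IL1A, IL1B, MMP1 and SERPINB7 were, where 2.22% of all counted genes were so. In 19 (29.7%) Mel 290 alone was already at least 1 log2 unit above both others alone, which held for 6.07% of counted genes. Another 115 genes (0.841%) were at least 2-fold lower in Mel 290 and at least 2-fold below both. Among these 79 (68.7%) began at least 1 log2 unit above both other lines alone, and 32 were below the floor on all 4 other arrays. Genes were counted by their Mel 290 values, so those read only in Mel 290 could pass and had no room to fall in the other lines, and these shares are a description of the set.

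A further set of 103 genes (0.754%) was at least 2-fold higher in both other lines with Mel 290 at least 1 log2 unit behind both. Of these 24 were still at least 2-fold higher in Mel 290, and 37 had a change under 0. Mel 290 alone lay at least 1 log2 unit above both others at 38 (36.9%). The median level of the set alone was 7.86 in Mel 290, 6.75 in 92.1 and 7.01 in Mel 270, and in co-culture 8.46, 9.29 and 9.81. By these medians the starting level was higher in Mel 290 and the end level lower. The set was chosen by its smaller change in Mel 290, so a gap at the start, at the end or at both is built in. These values and the share above are a description of the set.

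PLK2, a stress-induced kinase, read 11.52 and 10.69 in Mel 290, 7.92 and 10.88 in 92.1, and 8.44 and 11.73 in Mel 270. MYOF, a membrane repair protein, read 11.47 and 10.65, with 6.39 and 9.28 in 92.1 and 7.22 and 11.60 in Mel 270. FN1, fibronectin, read 12.22 and 12.30, with 8.04 and 10.48, and 10.20 and 12.70. All 3 were high in Mel 290 from the start. MIR21, read by a probe set annotated to this microRNA gene and not by its mature form, read 8.86 and 9.85, with 5.42 and 10.13, and 6.47 and 11.08. RETREG1, a receptor for turnover of endoplasmic reticulum, read 9.09 and 8.22, with changes of 2.21 and 2.24 in the others. RGS16, a regulator of G protein signalling, did not follow this, with 6.98 and 7.21 in Mel 290, below the values of both other lines alone, 7.80 and 7.84.

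**Figure D4:**
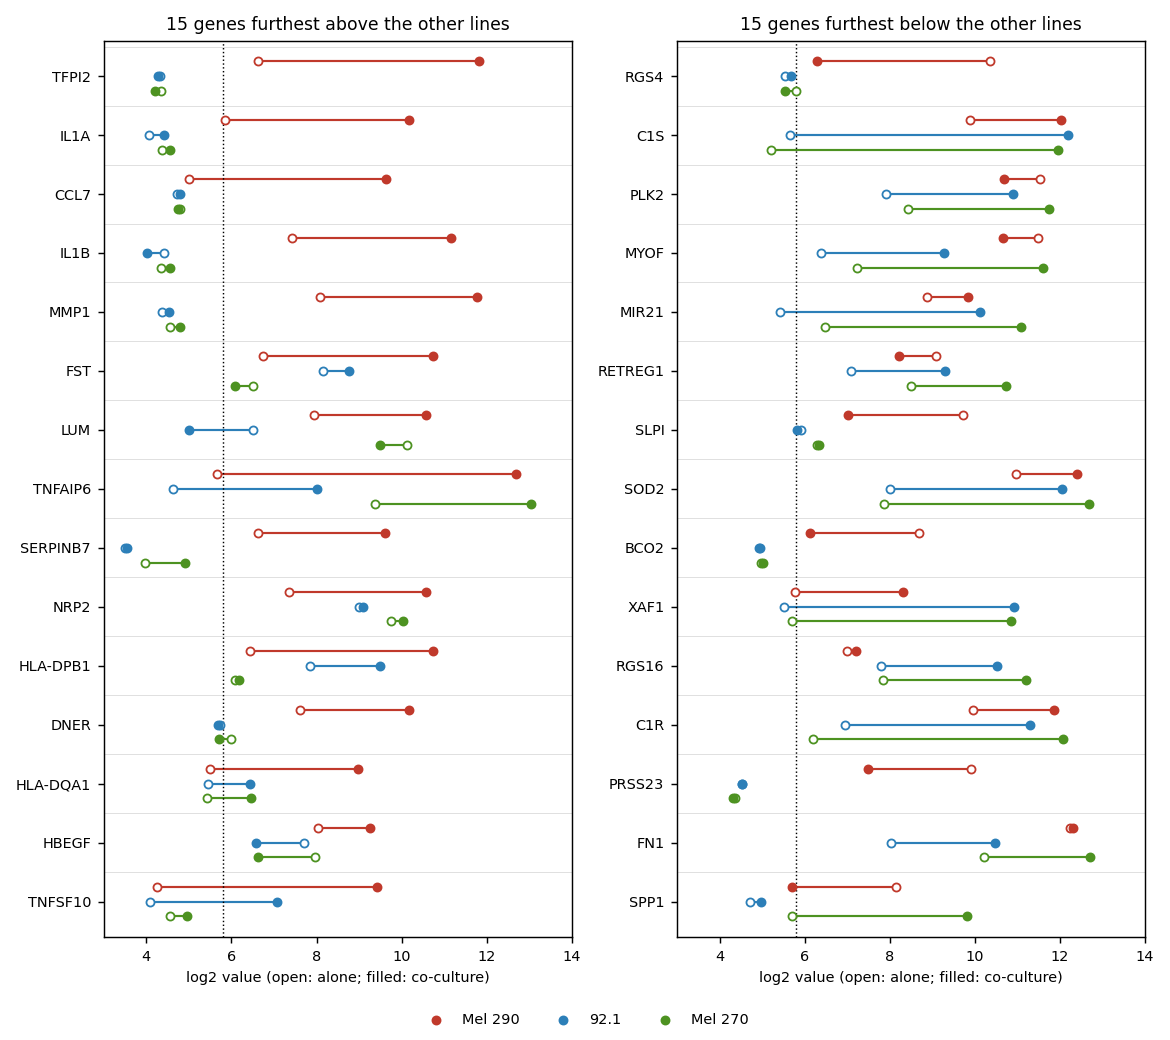
Log2 values alone (open) and in co-culture (filled) in the 3 lines for the 15 genes whose raised change in Mel 290 lies furthest above (left) and furthest below (right) the nearer other line. The dotted line is the floor of 5.80. On the left TFPI2, IL1A, IL1B and MMP1 lie right of the floor only in Mel 290. On the right Mel 290 begins to the right of both other lines at C1S, PLK2, MYOF, SOD2, C1R and FN1.

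The difference of each Mel 290 change from the mean of the other lines was tested in limma. A gene's own spread was the gap between 92.1 and Mel 270, with 1 degree of freedom. It was moderated by a prior taken over all tested genes, with 2.81 degrees of freedom. The test called 0 genes higher (0%) and 0 lower (0%) at an adjusted p under 0.05. At an unadjusted p under 0.05 limma had 371 genes higher and 625 lower. The smallest adjusted p in limma was 0.322, shared by 11 genes. A p that misses the threshold does not show that the lines acted alike, and where the other lines read below the floor their spread is that of the background. The line had no repeat culture, so these p-values carry no spread between cultures.

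Several of the genes with the largest falls were high in Mel 290 alone and low in both other lines. RGS4, which turns off G protein signals, read 10.35 alone and 6.29 in co-culture, a change of -4.05. It read 5.54 and 5.69 in 92.1 and 5.79 and 5.53 in Mel 270. Of the 9 counted RGS genes of the list it was the only one 2-fold apart, and the list's median was 0.01. GASK1B, a Golgi protein, read 9.08 and 5.28 in Mel 290, with a change of -3.80 and a raised one of -3.28, and was lower in the others too (-2.18 and -1.72). SLPI, a leukocyte protease inhibitor, read 9.73 and 7.02, a change of -2.71, with -0.10 and 0.06. PRSS23, a secreted serine protease, read 9.92 and 7.49, with values from 4.31 to 4.53 on the other arrays.

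Other large falls had the same form. BCO2, which cleaves carotenoids, read 8.68 and 6.13 in Mel 290 and at most 5.01 on the other arrays. PSG4, of the pregnancy-specific glycoproteins, read 11.09 and 8.78, against at most 6.47, and its close paralogs make the single gene uncertain. F2RL2, a thrombin receptor, read 10.49 and 8.41, against at most 4.72, and NPR3, which clears natriuretic peptides, 8.98 and 6.93, also against at most 4.74. SPP1, osteopontin, read 8.15 and 5.70 in Mel 290, 4.72 and 4.96 in 92.1, and 5.70 and 9.81 in Mel 270. EIF4EBP2, a repressor of translation initiation, was a broad exception. It read 9.52 and 7.18 in Mel 290, 11.32 and 10.71 in 92.1, and 9.68 and 9.47 in Mel 270. PEG10 and AHNAK2 were also lower in Mel 270, with -2.69 and -2.50, and PRUNE2 in 92.1, with -3.03.

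Matrix and contractile genes moved in both directions. Over all counted genes 2.22% were at least 2-fold higher and 2.5% lower. Of 35 counted mesenchymal and matrix genes 2 were at least 2-fold higher, LUM and TNC, and 6 lower, with a median of -0.07. COL12A1, a fibril-associated collagen, read 10.09 and 8.25, a change of -1.84, with 0.00 and 0.05. ACTA2, smooth muscle actin, read 8.78 and 7.12, a change of -1.66, with 1.69 in 92.1 and 0.34 in Mel 270. SNAI2, a transcription factor of mesenchymal transition, went from 8.98 to 7.77, a change of -1.21. Of 22 counted TGF-beta, BMP and YAP targets 2 were higher, FST and BAMBI, and 2 lower. The lower ones were CCN2, a matricellular growth factor, from 9.91 to 8.03, and ANKRD1, from 9.53 to 8.11. DKK1, a secreted WNT antagonist, went from 10.11 to 8.29, a change of -1.82, with -0.10 and -0.08, and WNT5A, a WNT ligand, from 7.16 to 9.16, a change of 2.00, with 1.03 and 1.47.

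Lipid handling gave 4 lower genes of 15 counted, and 2 higher. CD36, the fatty acid scavenger receptor, read 7.54 and 4.24 in Mel 290, a change of -3.30 and a raised one of -1.74, while 92.1 read 11.14 and 10.78 and Mel 270 10.61 and 10.80. PPARG, a receptor that drives fat storage, read 8.56 and 7.02, a change of -1.54, with -0.12 and 0.09. LPL, lipoprotein lipase, read 8.73 and 7.02, a change of -1.71, with 0.41 and -0.12. PPARGC1A, a co-activator of mitochondrial genes, had -1.95, but also -1.30 and -2.72 in the others. The higher ones were LIPG, an endothelial lipase (1.35), and ABCA1, a cholesterol exporter (1.24). ACACA and ELOVL6, enzymes of fatty acid synthesis, had -1.35 and -1.08, and 0 of 22 counted synthesis genes were 2-fold higher. NQO1, a quinone reductase, read 11.03 and 9.48, a change of -1.55, with 0.44 and 0.89. The metallothionein MT1X read 8.89 and 11.32, a change of 2.43, and MT1 genes are near copies.

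Proliferation genes were lower, chiefly those of mitosis. Of 28 counted mitosis genes 11 were at least 2-fold lower and 0 higher, with a median of -0.86, beside -0.93 in 92.1 and -2.14 in Mel 270. KIF20A, a kinesin of cell division, read 9.42 and 7.71, a change of -1.71, and PLK1, a mitotic kinase, 9.90 and 8.50, a change of -1.40. MKI67, the Ki-67 antigen, read 9.40 and 8.72, a change of -0.68, while Mel 270 had -2.78. DNA replication genes were lower by less. Of 26 counted 2 were at least 2-fold lower, TYMS (-1.17) and GINS1 (-1.08), against 18 in 92.1 and 18 in Mel 270. The median was -0.40 in Mel 290, -1.21 in 92.1 and -1.19 in Mel 270. Mel 290 had the highest change of the lines at 24 of the 26 genes, beside 42.8% of all counted genes. MCM3, of the replicative helicase, read 7.95 and 7.80, a change of -0.15, with -1.42 and -1.44 in the others. Mel 290 was confluent at the change to serum-free medium and the other lines were not, and the part of density in this was not tested.

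Of 20 counted cell death genes 6 were at least 2-fold higher and 0 lower. Over all counted genes 2.22% were at least 2-fold higher and 2.5% lower. PMAIP1, the BH3 protein NOXA, read 8.11 and 10.52, a change of 2.41, and FAS, a death receptor, 8.47 and 10.09, a change of 1.62. CFLAR, which blocks caspase-8, went from 7.88 to 9.18. The stress and signalling lists differed in their counts, to be read beside the same 2.22% of all counted genes. Of 23 AP-1 and immediate early genes 5 were at least 2-fold higher, of 23 MAPK output genes 4, and of 23 ATF4 and unfolded protein genes 0. In the last list 9 were 2-fold higher in 92.1. Of 24 hypoxia and glycolysis genes 1 was higher, ADM, a vasodilator peptide (1.69), against 9 in Mel 270. In tryptophan, arginine and NAD metabolism 6 of 15 were higher, among them KYNU, the kynureninase downstream of IDO1, from 4.90 to 10.00 with a change of 5.10 and a raised one of 4.20. CD38, which consumes NAD, read 5.12 and 7.52 in Mel 290, a change of 2.40 and a raised one of 1.73, and 4.84 to 5.17 on the 4 other arrays.

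Pigment lineage genes lay mostly within 2-fold, where 2.5% of all counted genes were at least 2-fold lower and 2.22% higher. Of 12 counted lineage and pigment genes 2 were at least 2-fold lower and 0 higher, TFAP2A, a neural crest factor, with a change of -1.35, and SLC45A2, a melanosome transporter, with a change of -1.39 and a raised one of -0.87. MITF had a change of -0.80 in Mel 290, -0.79 in 92.1 and -2.10 in Mel 270. Of 14 counted driver and class genes of uveal melanoma 1 was 2-fold lower, PLCB4, a phospholipase downstream of Gq, from 9.39 to 8.32. KRT8 and KRT18, simple epithelial keratins, had changes of -1.19 and -1.10. Monocyte, B cell and endothelial markers had 0 counted genes 2-fold apart, with medians of 0.14, 0.04 and 0.15 over 6, 5 and 1 genes. Among the uncounted monocyte markers, with means below the floor, FCER1G had a change of 1.01 and VCAN one of -1.58.

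**Figure D5:**
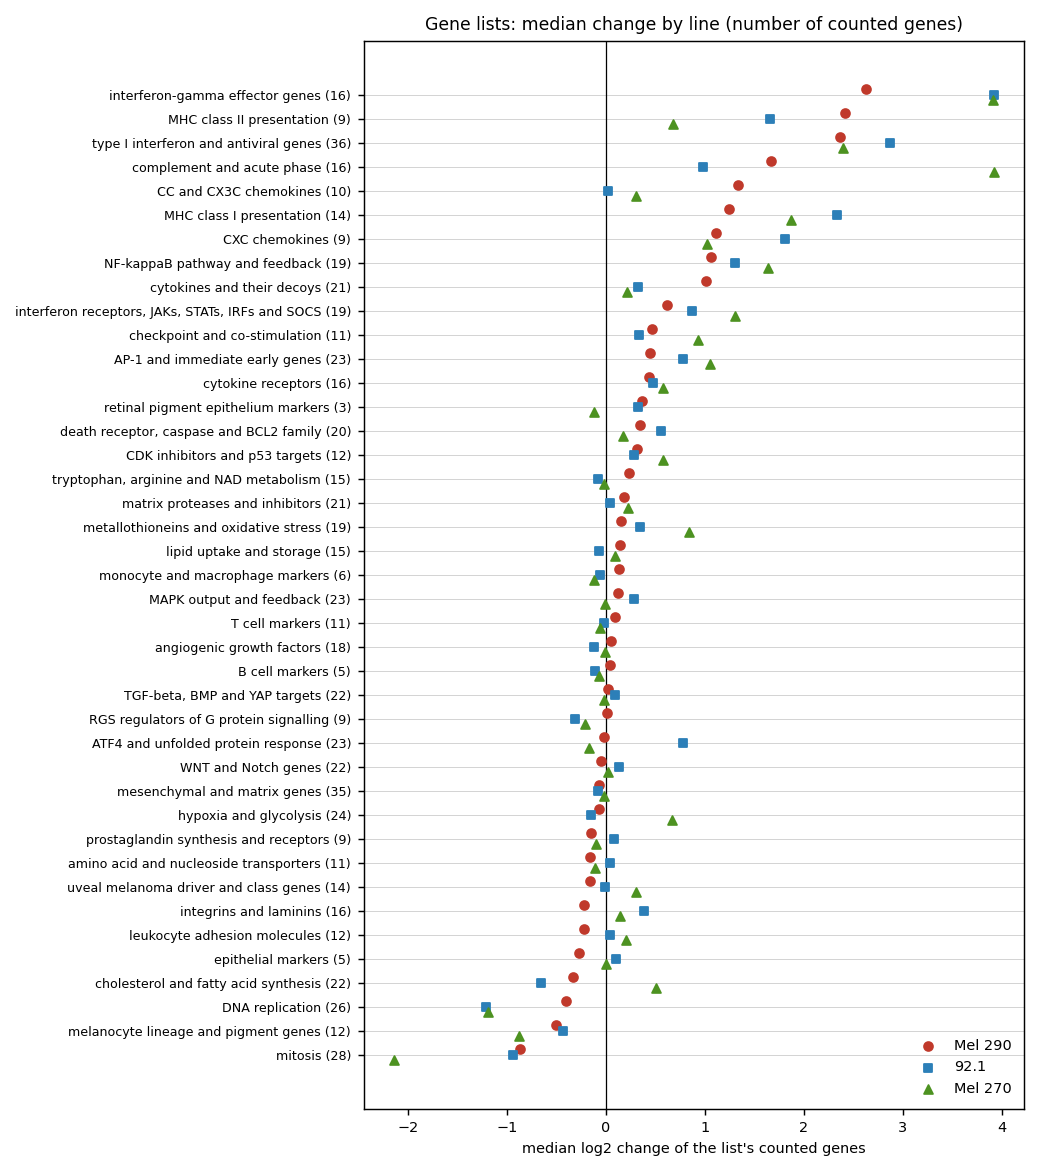
Median log2 change of each gene list with at least 3 counted genes, for Mel 290, 92.1 and Mel 270, ordered by Mel 290. Mel 290 lies right of both other lines for MHC class II (2.42), CC chemokines (1.33), cytokines (1.02) and DNA replication (-0.40), and left of both for interferon-gamma effectors (2.63), MHC class I (1.25) and NF-kappaB genes (1.06).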

How the data were processed

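Total RNA of melanoma cells was labelled with biotin and hybridised to an Affymetrix gene array, 1 array per line and condition. The deposited log2 values were made with Affymetrix Expression Console 1.2.0.20, per the submitters' processing notes, and how the authors summarized and normalized the probes is not given in the sources used here. Array medians ran from 6.63 to 6.69, so values were used as deposited, and the number of arrays limits the precision. Of 33297 probe sets, 19460 had 1 gene symbol, 1754 several and 12083 none in the platform table. Symbols were updated through a RefSeq table of GRCh38.p14 for 19433, and 27 kept the platform's. Of repeated probe sets of a gene the brightest by its mean over the arrays was used (643 counted genes). Groups were taken from the labels. Changes in Mel 290 were described with no test. The difference from the other lines was tested in limma 3.58.1 (R 4.3.3) with line, co-culture and co-culture in Mel 290 as terms and 1 residual degree of freedom, adjusted by Benjamini-Hochberg. The procedure was checked on simulated data. It missed the genes given a 4-fold difference and called most of those given a log2 difference of 4. No size between these was simulated. Named are the 20 largest rises and falls and the 15 genes furthest above and below the nearer other line, all by raised changes, and the extreme and defining members of 42 gene lists. Members, lists and rules were chosen with earlier results of these data known. Genes on a list that no single-symbol probe set reads are not analysed here. Tables and figures were made in Python 3.11.15 with pandas 2.3.3 and matplotlib 3.10.9. Alternatives were other normalizations, floors and probe set rules, values raised to the floor, leaving out a line and other limma priors.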

Additional observations from a re-analysis of the deposited data

Results flagged for a closer look

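HBEGF and CRYAB differed in direction between the lines. The change of HBEGF was 1.22 in Mel 290, -1.13 in 92.1 and -1.35 in Mel 270. That of CRYAB was -1.32 in Mel 290, 1.34 in 92.1 and 1.01 in Mel 270. Each rests on 1 array per line and condition, and this opposite direction was not tested on its own.

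Probe sets that stand for no single gene also differed between the Mel 290 arrays and enter no count of genes. Of 1307 counted probe sets with several symbols, 33 were at least 2-fold higher in co-culture and 13 lower, with changes from -1.68 to 6.27. Of 6184 counted probe sets that the platform table does not list, 51 were at least 2-fold higher and 44 lower, with changes from -1.70 to 5.61.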

How the results depend on the processing

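With 1 array a side the Mel 290 changes have no replicate error, and low signals are limited by background. Of 53 counts of genes by size recomputed under other settings, 52 stayed within 1.5 times the reported count. The exception was the number of genes higher in Mel 290 and apart from both other lines, which was 113 without Mel 270 and 96 without 92.1, against 64 with both. Leaving out a line drops a condition of the rule, so counts of genes apart could only stay or rise. The limma difference called 0 genes in either direction under every setting run, which says nothing of stability, with smallest adjusted p-values in limma from 0.0952 (prior with a trend) to 0.555 (values raised to the floor). Of 210 list medians 204 and of 315 named gene changes 309 moved by less than the SD over the 3 lines, and 0 changed sign from a value past 2-fold. That SD is large for genes named because the lines differ, so for them this is a loose limit and no sign of stability. TNFSF10 stayed within it while going from 5.16 to 3.61 with low values raised to the floor. The 6 named changes that moved by more than their own SD over the lines were those of CXCL10, CXCL11, CXCL9, GBP4, GBP5 and IDO1. All of these moved with low values raised to the floor. Centring the changes on their medians gave 302 higher and 344 lower genes. Leaving out a line leaves the limma fit no residual degrees of freedom, so it was not run.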
